A study of Mus musculus with 12 samples.

Results

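Hba-a1, Hba-a2, Hbb-bs and Hbb-bt are the adult globin genes of the mouse, and they are 4 of the 55450 genes in a table of estimated counts from sorted bone marrow progenitors. They were picked by gene symbol after an earlier reading of the same data had shown their levels in the 4 genotypes, so their levels and their differences between genotypes are given as a description without a test. The cells were donor-derived, carried the receptor Kit and no lineage markers (LK cells), and were sorted from the marrow of mice that had received competitive transplants. There were 3 libraries of each genotype label: WT, Tet2 KO (Tet2KO), Id1 KO (Id1KO), and Tet2 KO with Id1KO combined (dKO). Tet2 encodes a dioxygenase that oxidises methylated cytosine, and Id1 encodes a helix-loop-helix protein that binds E proteins and keeps them from DNA. The labels give no allele, Cre driver, age or sex for donors or recipients, and do not say whether the 3 libraries of a genotype came from separate mice. Titles give all libraries of a genotype the same sample number, so genotype and sample cannot be told apart. All p-values therefore measure the spread between these libraries, which may be technical.

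Haemoglobin of adult red cells is a tetramer of alpha chains, encoded by Hba-a1 and Hba-a2, and beta chains, encoded in the reference strain by Hbb-bs and Hbb-bt. Each chain holds a haem group that binds oxygen. Transcription of both clusters rises as erythroid precursors mature, under GATA1, KLF1 and the TAL1 complex, from distant enhancers that loop to the promoters. Kit is lost from the cell surface during that maturation, so a Kit-positive gate holds early erythroid progenitors rather than haemoglobin-filled erythroblasts.

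The copies within each pair are almost the same in sequence, which bears on every value of a single gene. Hba-a1 and Hba-a2 share 425 of 426 coding bases, and Hbb-bs and Hbb-bt share 440 of 441. The stretches around the only coding difference are shown because they are what tells the copies apart in reads of the coding sequence. They run 5′ to 3′ over coding bases 336 to 425 for the Hba pair and 352 to 441 for the Hbb pair, counted from 1 at the start codon in GENCODE M21, and the capital marks the base that differs.
Hba-a1: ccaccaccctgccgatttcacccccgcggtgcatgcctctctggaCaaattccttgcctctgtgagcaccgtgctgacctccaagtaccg
Hba-a2: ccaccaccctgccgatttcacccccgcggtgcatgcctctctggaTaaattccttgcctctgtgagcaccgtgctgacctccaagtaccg
Hbb-bs: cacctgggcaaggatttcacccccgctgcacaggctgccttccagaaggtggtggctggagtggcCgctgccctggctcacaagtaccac
Hbb-bt: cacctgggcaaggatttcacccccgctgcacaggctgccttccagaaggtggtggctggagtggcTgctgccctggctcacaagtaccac
The difference is C381T from Hba-a1 to Hba-a2 and C417T from Hbb-bs to Hbb-bt. The longest identical run of coding sequence is 380 bases in the Hba pair and 416 in the Hbb pair, against 14 between any Hba and any Hbb gene, where 56.0% to 56.2% of aligned bases are identical. Within a pair, a coding read that misses the differing base fits both copies. The deposited values bear the mark of that division. The estimates of a single copy were fractional in all 12 libraries for Hba-a1 and Hba-a2 and in 10 for Hbb-bs and Hbb-bt, yet Hba-a1 plus Hba-a2, and Hbb-bs plus Hbb-bt, added to a whole number in 12 of 12 libraries (within 0.011). Values of single copies are thus uncertain, and the sum of each pair is the firmer measurement.

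In GENCODE M21 (build GRCm38) Hba-a1 (ENSMUSG00000069919.7) lies at chr11:32283511-32284465 and Hba-a2 (ENSMUSG00000069917.7) at chr11:32296489-32297298, both on the plus strand, with 812 and 667 bp of exon. Hbb-bs (ENSMUSG00000052305.6) lies at chr7:103826534-103828096 and Hbb-bt (ENSMUSG00000073940.3) at chr7:103812524-103813996, both on the minus strand, with 768 and 703 bp of exon. The main transcript of each has 3 exons, and no annotated gene overlaps any of the 4.

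The promoters are shown because both pairs moved together across genotypes. Sequences are from RefSeq (GRCm38.p6), limited to bases outside GENCODE exons, and capitals mark matches to motifs bound by erythroid or general promoter factors. For Hba-a2 the stretch is chr11:32296242-32296488 on the plus strand, for Hbb-bs chr7:103827929-103828011 and for Hbb-bt chr7:103813997-103814173, both on the minus strand.
Hba-a2: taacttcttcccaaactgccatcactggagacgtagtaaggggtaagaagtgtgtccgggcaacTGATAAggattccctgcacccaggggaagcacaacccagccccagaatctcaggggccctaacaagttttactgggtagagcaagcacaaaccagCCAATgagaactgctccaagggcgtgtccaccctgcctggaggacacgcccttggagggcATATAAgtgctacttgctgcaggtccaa
Hbb-bs: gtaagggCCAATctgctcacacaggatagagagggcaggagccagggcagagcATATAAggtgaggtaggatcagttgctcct
Hbb-bt: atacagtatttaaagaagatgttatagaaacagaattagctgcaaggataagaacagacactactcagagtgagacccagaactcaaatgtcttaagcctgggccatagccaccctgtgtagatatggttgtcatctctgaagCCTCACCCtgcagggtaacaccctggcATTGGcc
Both strands of the 250 bases before each start site were searched for 5 motifs, whose matches in the members do not overlap each other. The sequence ATATAA, a box bound by general transcription factors, is held by 9.51% of 27025 promoters and was present in all 4 members. The motif of the nuclear factor Y complex, CCAAT, is held by 34.5% and was present in all 4 as well, with 3 matches in Hbb-bt. One form of the site bound by GATA factors, TGATAA, which 8.16% hold, was found in Hba-a1 and Hba-a2. Another form, AGATAA, which 10.3% hold, was found in Hbb-bs, and further forms were not searched. Some matches, among them this AGATAA, lie outside the stretches shown. A box bound by KLF factors, CCNCNCCC, which 45.6% hold, was found in Hbb-bs and Hbb-bt. The upstream windows of the Hba pair hold an identical run of 247 of their 250 bases, whereas those of the Hbb pair share 68.4% of aligned bases with no identical run over 14. A match describes letters in the sequence and is not evidence of binding.

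All libraries were deep, and the globin part of them was small. Totals ran from 15706407 to 19959183 estimated counts, and the 4 genes together took 278 to 814 counts of a library, or 0.00172% to 0.00518%. The sort was visible in the markers, with Kit at 314 to 377 and Cd34 at 279 to 370 counts normalised to library size (CPM, scaled between libraries by TMM), and with Cd3e, Cd8a, Ms4a1 and Ly6g at 3 counts or fewer. The transcripts named in the labels did not go down with them: Tet2 averaged 99.3, 130, 92.0 and 118 CPM, and Id1 1.47, 3.86, 3.96 and 3.93 CPM, under the labels WT, Tet2KO, Id1KO and dKO. Counts over the whole gene cannot tell whether part of it is missing, and the labels do not state what was deleted. Genotypes below are therefore those of the labels. Within a genotype, library pairs differed by 1.18 to 2.10 times sampling noise, against 2.89 to 5.94 times between genotypes. The mitochondrial share of counts was 1.40% to 2.27%. In sorted bulk cells, fewer cells that transcribe globin and less globin RNA per such cell cannot be told apart.

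Every adult globin gene was lowest in the libraries labelled Tet2KO and highest in those labelled dKO, with Id1KO and WT between. The Hba-a1 estimate was 11.2, 10.8 and 9.79 CPM in the WT libraries (replicates 1, 2 and 3), and 4.87, 6.58 and 6.94 CPM in Tet2KO. It was 7.85, 10.3 and 9.60 CPM in Id1KO and 15.5, 14.2 and 15.3 CPM in dKO. All dKO values lay above all others and all Tet2KO values below all others, while Id1KO overlapped WT. Hba-a2 stood at 7.53, 7.54 and 8.69 CPM in WT and 5.30, 5.21 and 3.94 CPM in Tet2KO. In Id1KO it was 7.25, 6.40 and 6.52 CPM and in dKO 14.4, 11.2 and 13.4 CPM. Here no 2 genotypes overlapped, and Id1KO lay wholly below WT.

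Hbb-bs, the more abundant beta gene, measured 7.97, 7.64 and 6.97 CPM in WT and 4.43, 4.69 and 4.07 CPM in Tet2KO. Values in Id1KO were 6.65, 6.83 and 8.03 CPM, and those in dKO 15.6, 13.4 and 13.1 CPM. Tet2KO and dKO again stood clear on either side, and Id1KO ran from below the lowest to above the highest WT library. Hbb-bt had 3.90, 4.69 and 4.16 CPM in WT against 2.44, 1.93 and 2.07 CPM in Tet2KO. The Id1KO libraries had 2.74, 4.36 and 3.36 CPM of it and the dKO libraries 6.13, 6.94 and 5.92 CPM. Its pattern was that of Hbb-bs, with Id1KO overlapping WT.

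**Figure D1:**
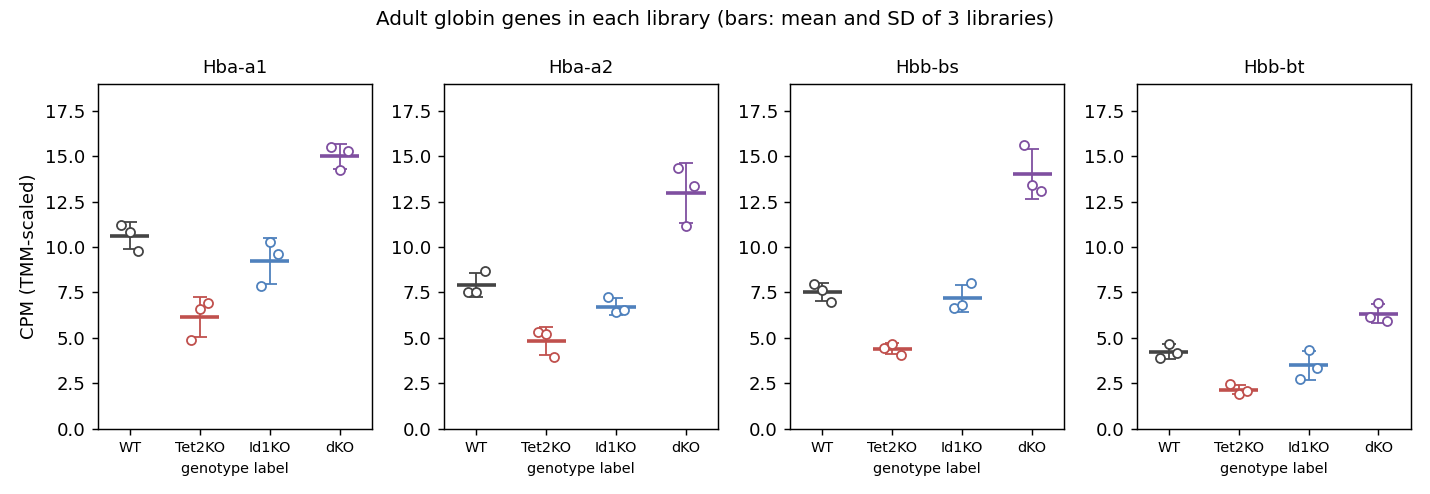
Level of each adult globin gene in each library (y axis, CPM scaled by TMM) by genotype label (x axis). Circles are libraries, and bars give the mean and SD of 3 libraries. In each panel the Tet2KO libraries lie below all others and the dKO libraries above all others, from 1.93 CPM for Hbb-bt in Tet2KO to 15.6 CPM for Hbb-bs in dKO.

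Per kilobase of exon, which allows genes to be compared, Hba-a1, Hba-a2 and Hbb-bs were at similar mean levels over the 12 libraries, at 12.6, 12.2 and 10.8 CPM per kb, and Hbb-bt was at 5.76. These are ordinary levels for LK cells: 72.8%, 71.8%, 68.5% and 52.0% of the 14346 genes with enough counts to test had a lower level. The genes behind the most abundant protein of red cells thus stood in the middle to upper range of tested genes.

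The summed level of the 4 genes separated the genotypes with little scatter. It was 30.6, 30.7 and 29.6 CPM in WT (mean 30.3 ± 0.603 SD, n = 3) and 17.0, 18.4 and 17.0 CPM in Tet2KO (17.5 ± 0.797). It was 24.5, 27.8 and 27.5 CPM in Id1KO (26.6 ± 1.85) and 51.6, 45.7 and 47.7 CPM in dKO (48.3 ± 2.99). No 2 genotypes overlapped in this sum, and the narrowest gap was that between Id1KO and WT. The spread between libraries, as a coefficient of variation, was 1.99%, 4.56%, 6.94% and 6.18% in WT, Tet2KO, Id1KO and dKO, against 4.16%, 5.76%, 4.50% and 3.55% that counting alone would give. The spread was below that of counting in WT and Tet2KO and above it in Id1KO and dKO.

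Copies taken singly scattered more than their sum. Hba-a1 in Tet2KO had a coefficient of variation of 18.0% where counting would give 9.70%, while Hba-a1 plus Hba-a2 in the same libraries had 7.43% where counting would give 7.28%. The Tet2KO library with the lowest Hba-a1 value, 4.87 CPM, held the highest Hba-a2 value, 5.30 CPM, and that with the highest Hba-a1 value, 6.94 CPM, held the lowest Hba-a2 value, 3.94 CPM. Between genotypes, alpha and beta moved together, with a Pearson r of 0.982 between the Hba sum and the Hbb sum over the 12 libraries. After genotype means were removed, r was 0.280. The high value thus describes the differences between genotypes, and all 12 points share their libraries' depth and scaling.

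Under the label Tet2KO, the 4 genes were well below WT. The summed level was 0.577 of that in WT (log2 difference -0.79 ± 0.041 SE). The log2 differences from edgeR were -0.78 ± 0.12 for Hba-a1, -0.73 ± 0.13 for Hba-a2, -0.78 ± 0.12 for Hbb-bs and -0.99 ± 0.17 for Hbb-bt. Differences between the 4 genes were not tested. All 4 genes were lower with no overlap between libraries, as were 23.1% of all genes tested, and because this contrast was among the values known when the genes were chosen, nothing is read from the count.

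Under Id1KO the genes were close to WT. The sum was 0.877 of WT (log2 -0.19 ± 0.061), with edgeR values from -0.28 ± 0.16 for Hbb-bt to -0.07 ± 0.11 for Hbb-bs. Of the 4, only Hba-a2 did not overlap WT (-0.24 ± 0.12), where 17.1% of all genes were lower without overlap. The sum of the Hba pair did not overlap WT (-0.22 ± 0.043), whereas that of the Hbb pair did (-0.15 ± 0.099).

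With both labels the genes exceeded WT, and not only Tet2KO. The dKO sum was 1.59 times WT (log2 0.67 ± 0.054), 2.76 times Tet2KO (1.47 ± 0.063) and 1.82 times Id1KO (0.86 ± 0.078). In edgeR's fit, Hbb-bs was the farthest above WT at 0.90 ± 0.098, followed by Hba-a2 at 0.71 ± 0.11, Hbb-bt at 0.58 ± 0.14 and Hba-a1 at 0.50 ± 0.11. Against Tet2KO the same genes in that order differed by 1.67 ± 0.11, 1.44 ± 0.12, 1.57 ± 0.17 and 1.28 ± 0.12. Against Id1KO they differed by 0.97 ± 0.10, 0.95 ± 0.11, 0.85 ± 0.15 and 0.70 ± 0.11. All 4 were higher without overlap in each of these comparisons, as were 16.7%, 19.7% and 17.1% of all genes against WT, Tet2KO and Id1KO. These comparisons share libraries and are not independent of each other. The difference of differences, dKO against Tet2KO less Id1KO against WT, was 1.66 ± 0.088 for the sum, 1.57 ± 0.10 for the Hba pair and 1.79 ± 0.12 for the Hbb pair on the log2 scale.

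How the globin counts divided among the genes is not fixed by choosing genes for their level, and it was tested. The levels from which the shares are computed had been seen, so these tests are not independent of that earlier reading. Alpha genes held 61.2% ± 1.29 (SD, n = 3) of adult globin counts in WT and 57.8% ± 2.30 in dKO, with Tet2KO at 62.6% ± 2.48 and Id1KO at 60.0% ± 1.54. The dKO mean was the lowest, but the genotypes did not differ beyond their spread (two-sided exact permutation test over 369600 assignments, p = 0.0888, Benjamini-Hochberg adjusted p = 0.266 over 3 shares). Single libraries ran from 55.5% (95% Wilson interval 52.0% to 59.0%) in a dKO library to 64.1% (58.6% to 69.2%) in a Tet2KO library. Intervals cover counting error only, since amplified reads are not independent molecules. Hba-a1 held 57.2% ± 3.74, 55.8% ± 7.93, 57.7% ± 5.06 and 53.8% ± 2.12 of Hba counts in WT, Tet2KO, Id1KO and dKO, with an exact permutation p of 0.782, raw and adjusted. Hbb-bs held 63.9% ± 2.82, 67.2% ± 3.27, 67.5% ± 5.55 and 68.9% ± 2.95 of Hbb counts, with an exact permutation p of 0.460 and an adjusted p of 0.690. The Hba-a1 share alone ran from 47.9% to 63.8% among the 3 Tet2KO libraries.

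**Figure D2:**
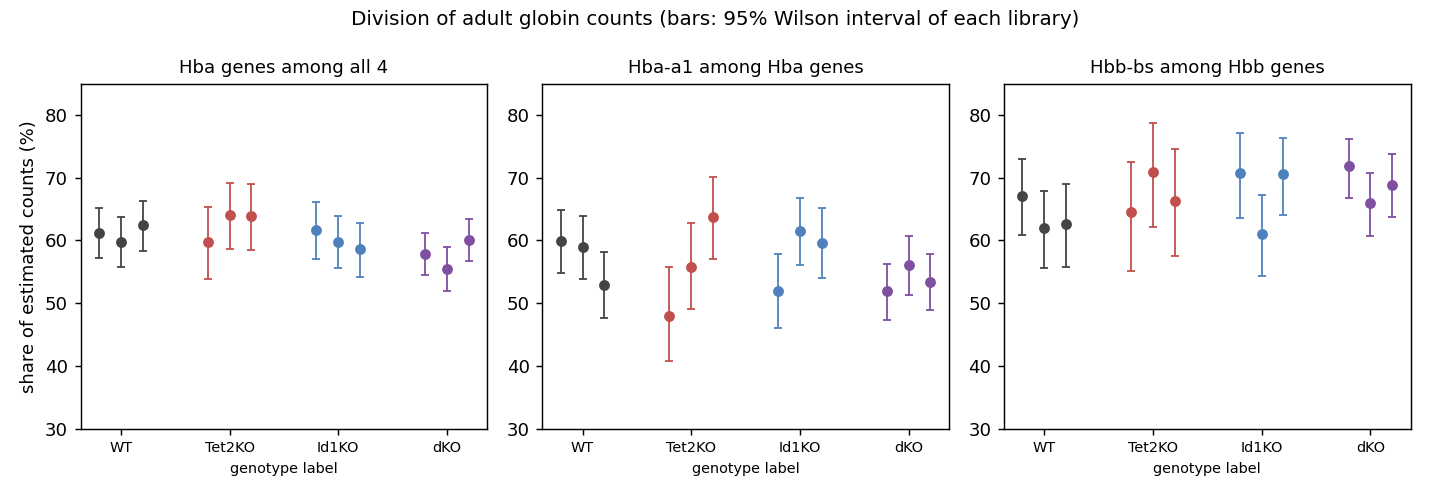
Share of estimated counts (y axis, %) taken by the Hba genes among all 4, by Hba-a1 among the Hba genes and by Hbb-bs among the Hbb genes, for each library by genotype label (x axis). Points are libraries, and bars are 95% Wilson intervals for counting error. The ranges of the genotypes overlap in each panel, and the alpha share lies between 55.5% and 64.1% in all 12 libraries.

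The other genes needed to make haemoglobin, or known to act with it, were taken from 4 lists with 75 genes, of which 72 were in the table and 61 had enough counts to test. The lists were chosen with earlier results of these data known, so their direction is no independent support. In the libraries labelled Tet2KO, 46 of the 61 fell and 4 rose against WT (edgeR, adjusted p below 0.05), where 16.2% of all genes fell and 16.6% rose, or 32.8% in either direction. The median log2 difference was -0.40, against -0.0028 over all genes. The globin genes were among the more reduced, since 18 of 18 haem genes and 14 of 17 regulators lay above every globin gene. Late erythroid genes reached lower values, with 8 of 26 below every globin gene.

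Haem is made in mitochondria and cytosol by a chain of enzymes and needs iron imported through the transferrin receptor. Of 18 tested genes for haem and globin assembly, 14 fell under the label Tet2KO and 1 rose, the mitochondrial iron importer Slc25a37, named after its value was seen. Cpox, which makes protoporphyrinogen, fell by 0.63 ± 0.04 (log2, SE) from 86.6 ± 0.532 to 55.8 ± 1.87 CPM (edgeR, adjusted p = 6.42e-11). The transferrin receptor Tfrc fell by 0.31 (4.39e-07), the porphyrin transport protein Tmem14c by 0.28 (4.81e-05) and the mitochondrial transporter Abcb10 by 0.24 (1.16e-05, all edgeR adjusted p). Alas2, the erythroid enzyme that starts haem synthesis, had at most 13 counts in a library and gave no call in any comparison.

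Among 17 tested regulators of globin genes, 10 fell and 2 rose under Tet2KO. Klf1, a factor that binds the beta-globin promoter, fell by 0.80 ± 0.04 (edgeR, adjusted p = 1.27e-11), from 71.0 ± 2.51 to 40.7 ± 0.683 CPM. Gata1 fell by 0.73 ± 0.04 (1.07e-10), from 51.6 ± 0.558 to 31.0 ± 1.33 CPM. These sizes are close to those of the globin genes. The abundant regulators moved far less: Myb by -0.10 (edgeR, adjusted p = 0.00194) and the bridging factor Ldb1 by -0.16 (0.000753), while the chromatin remodeller Atrx gave 0.07 (0.101). Calls for Lmo2 and Nfe2, at -0.11 and 0.09, were lost when single libraries were left out. For Lmo2 (edgeR, adjusted p = 0.0155) these were WT replicate 2 (0.106) and Tet2KO replicates 1 and 2 (0.06 each). For Nfe2 (0.0382) they were each of the 3 WT libraries and Tet2KO replicates 1 and 3 (0.0516 to 0.208). The 2 repressors of fetal globin genes in humans, Bcl11a and Zbtb7a, did not pass the test (-0.04 and 0.11). For Zbtb7a this rested on WT replicate 1, at 77.7 CPM against 65.7 and 66.9 CPM in WT replicates 2 and 3. Without that library Zbtb7a was called higher, by 0.20 (edgeR, adjusted p = 0.000758). Sox6, a partner of Bcl11a that was picked out after its value was seen, rose by 0.67 ± 0.09 (edgeR, adjusted p = 1.28e-05).

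Genes of the red cell membrane and of late erythroid cells formed the most uniform list, with 22 of 26 lower and 1 higher under Tet2KO and a median of -0.88. The carbonic anhydrases Car1 and Car2, which are induced early in erythroid commitment, fell by 0.87 ± 0.03 and 0.84 ± 0.02 (edgeR, adjusted p = 9.45e-15 and 9.96e-16). The blood group protein Ermap fell by 0.92 ± 0.03 (4.35e-14) and the water channel Aqp1 by 0.67 ± 0.03 (6.67e-12). Epb41, a skeleton protein also used outside the erythroid lineage, gave -0.08 (0.032), a call that was lost under 10 alternatives, among them leaving out any 1 of the WT replicates 1 and 2 (0.158 and 0.0688), the Tet2KO replicates 1 to 3 (0.0782, 0.094 and 0.0986), Id1KO replicate 1 (0.0562) or dKO replicate 3 (0.053).

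Under Id1KO fewer of these genes passed the test than under Tet2KO. Of 61, 8 rose and 5 fell, where 7.26% of all genes rose and 7.77% fell (15% in either direction), with a median of 0.02. Rises were thus more frequent than over all genes, and falls were near their share over all genes. Tfrc rose by 0.43 ± 0.03 (edgeR, adjusted p = 9.84e-09), from 288 ± 3.31 to 387 ± 15.5 CPM, and Car1 by 0.17 ± 0.03 (0.000286), while Klf1 (0.02) and Gata1 (0.04) did not pass. The globin genes, at -0.28 to -0.07, lay below 12 of 18 haem genes, 15 of 17 regulators and 20 of 26 late erythroid genes.

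In dKO the globin genes stood above WT, and most of their partner genes did not. Against Tet2KO, 41 of 61 partner genes were higher and 3 lower (edgeR, adjusted p below 0.05; background 13.1% and 13.4%, or 26.4% in either direction), with a median of 0.39. Against WT, however, 10 were higher and 11 lower (background 10.2% and 8.97%, or 19.2%), with a median of -0.05. The median was thus near WT, while calls in both directions were more frequent than over all genes. The total of 21 calls was 13 without WT replicate 2 and 13 without dKO replicate 1. Klf1, at 67.4 ± 2.14 CPM, was 0.73 ± 0.04 above Tet2KO (edgeR, adjusted p = 1.12e-10) and -0.08 ± 0.04 from WT (0.182). Gata1, at 49.4 ± 0.581 CPM, was 0.67 ± 0.04 above Tet2KO (8.25e-10) and -0.06 ± 0.04 from WT (0.318). Car2 was 0.78 ± 0.02 above Tet2KO (3.28e-15) and -0.06 from WT (0.0825), and Car1 0.70 above Tet2KO (4.18e-13) and -0.16 from WT (0.000281). Ermap and Aqp1 were 0.99 and 0.69 above Tet2KO (1.75e-14 and 4.81e-12) and 0.06 and 0.02 from WT (0.155 and 0.687). The globin genes, at 0.50 to 0.90 above WT, exceeded 17 of 17 regulators, 17 of 18 haem genes and 25 of 26 late erythroid genes. The exceptions were Alas2 (0.69 ± 0.44, edgeR, adjusted p = 0.31, at most 13 counts) and Slc4a1.

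**Figure D3:**
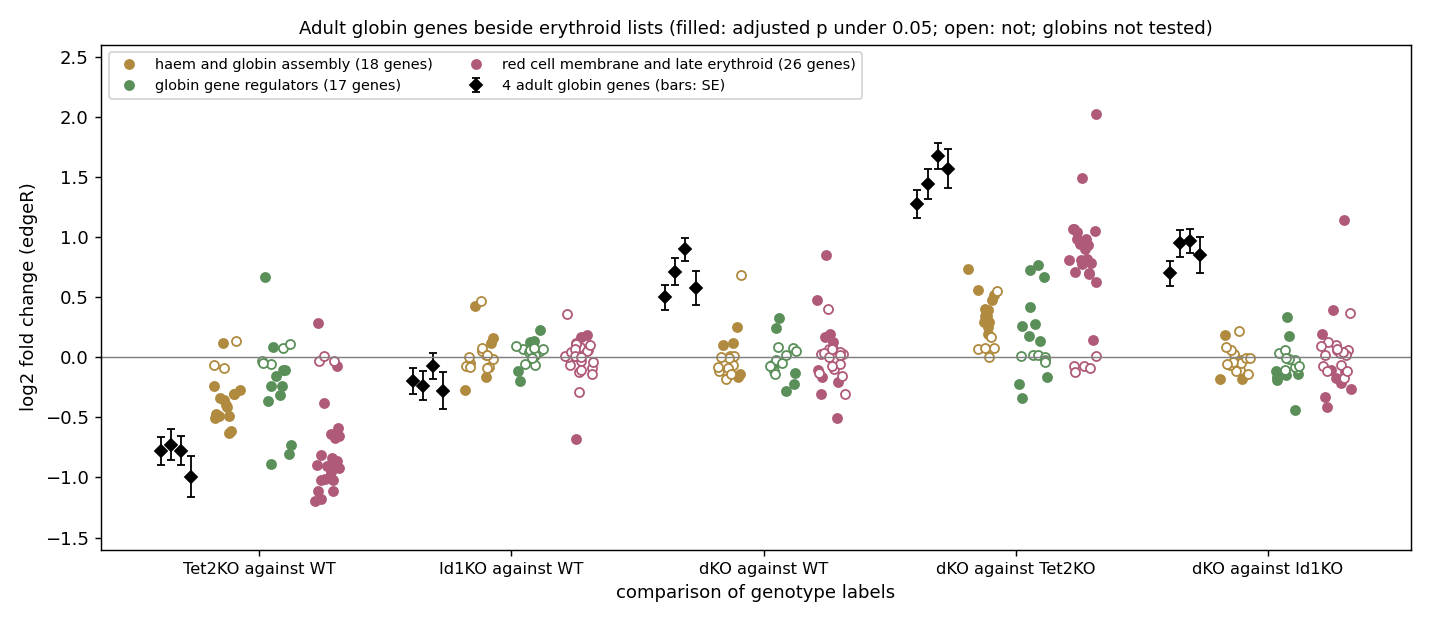
Log2 fold change from edgeR (y axis) in 5 comparisons of genotype labels (x axis) for the 4 adult globin genes (black diamonds with SE, not tested) and for the 61 tested genes of 3 lists (circles, filled where the adjusted p was below 0.05). In Tet2KO against WT the globin genes lie among the late erythroid genes, and in dKO against WT they lie at 0.50 to 0.90 while the list medians lie at -0.06, -0.06 and 0.02.

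Of the 26 late erythroid genes, 5 were called higher in dKO than in WT (Slc4a1, Epb42, Ank1, Rhag and Xpo7) and 5 lower (Car1, Tspo2, Icam4, Rhd and Bnip3l). Of these, Car1 alone was to be named whatever its value. Slc4a1, the anion exchanger band 3, was at 0.840 ± 0.058, 0.363 ± 0.106, 0.687 ± 0.234 and 1.51 ± 0.390 CPM under the labels WT, Tet2KO, Id1KO and dKO, with at most 33 counts in a library. Its difference of 0.85 ± 0.28 from WT (edgeR, adjusted p = 0.0386) was lost with DESeq2 (0.157) and on leaving out WT replicates 1, 2 or 3 (0.0715, 0.114 and 0.0858) or dKO replicates 1 or 3 (0.0594 and 0.211). Epb42, the band 4.2 protein, was at 5.01 ± 0.453, 2.47 ± 0.243, 5.31 ± 0.788 and 6.99 ± 0.977 CPM in the same order. It differed from WT by 0.47 ± 0.13 (edgeR, adjusted p = 0.0145), a call lost without WT replicate 3 (0.0679) or dKO replicate 1 (0.0871). Ank1, the ankyrin of the red cell skeleton, was 0.12 ± 0.03 above WT (0.0117). Among those below WT by edgeR, the values were -0.30 ± 0.07 for Tspo2, a cholesterol-binding protein of erythroblasts (0.0047), -0.50 ± 0.11 for the adhesion protein Icam4 (0.00225) and -0.20 for Rhd, a blood group protein of the membrane (0.0124).

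Regulators split in the same comparison. Bcl11a, at 104 ± 2.69 CPM in dKO, was above WT by 0.24 ± 0.04, above Tet2KO by 0.28 ± 0.04 and above Id1KO by 0.17 ± 0.04 (edgeR, adjusted p = 0.000211, 4.49e-05 and 0.00372). Sox6 was above WT by 0.33 ± 0.10 (0.0202) and stood at -0.34 ± 0.09 from Tet2KO (0.00855). Myb gave -0.13 against WT (0.000632), whereas Zbtb7a gave 0.07 (0.343). Without WT replicate 1, Zbtb7a was called above WT by 0.16 (edgeR, adjusted p = 0.00868). Against Id1KO, 6 of 61 partner genes were higher and 15 lower in dKO (background 10.6% and 8.7%, or 19.3%), with a median of -0.05, while the 4 globin genes were 0.70 to 0.97 higher.

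For the interaction of the labels, the partner lists gave 37 positive and 3 negative calls of 61 (background 7.46% and 7.03%, or 14.5%), with a median of 0.36 against 0.0087 over all genes. By list these were 11 and 1 of 18 haem genes, 6 and 1 of 17 regulators, and 20 and 1 of 26 late erythroid genes. The globin genes, at 1.48 ± 0.16, 1.68 ± 0.17, 1.75 ± 0.15 and 1.85 ± 0.23 for Hba-a1, Hba-a2, Hbb-bs and Hbb-bt, exceeded 18 of 18, 17 of 17 and 24 of 26 genes of these lists.

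Set against summed erythroid lists, or against Klf1 or Gata1, globin RNA was highest in dKO. The distance of Tet2KO from WT depended on the reference. Summed globin CPM was 1.35% ± 0.022 (SD, n = 3) of the summed CPM of the 26 late erythroid genes in WT and 2.19% ± 0.12 in dKO, while Tet2KO had 1.23% ± 0.063 and Id1KO 1.13% ± 0.083. The list itself summed to 2237 to 2281 CPM in WT and 2194 to 2219 CPM in dKO. It summed to 1408 to 1423 CPM under Tet2KO and 2352 to 2372 CPM under Id1KO. The dKO libraries thus lay just below WT in the list and above it in the ratio. Car1 and Car2, which are induced early in erythroid commitment, and Aqp1 weigh most in this sum, at 493, 487 and 276 CPM in WT. Slc4a1 and Epb42, at 0.840 and 5.01 CPM in WT, weigh little in it. Both were themselves highest in dKO, at 1.51 and 6.99 CPM. Neither was used as a reference by itself, so globin relative to them was not examined. As a percentage of Klf1 CPM, the globin sum was 42.7 ± 1.83, 43.0 ± 2.42, 36.9 ± 2.42 and 71.7 ± 2.46 under the labels WT, Tet2KO, Id1KO and dKO. As a percentage of Gata1 it was 58.7 ± 0.650, 56.4 ± 3.33, 50.0 ± 4.05 and 97.7 ± 4.91. In these 3 ratios each dKO library lay above every other library. Against the haem and globin assembly list the sum was 2.33% ± 0.049, 1.67% ± 0.083, 1.92% ± 0.13 and 3.64% ± 0.22, and against the regulators 1.17% ± 0.023, 0.734% ± 0.030, 1.01% ± 0.070 and 1.94% ± 0.13, in the same order of labels. With these 2 lists as reference Tet2KO stayed below WT. With the late erythroid list it also stayed below WT, but nearer to it (1.20% to 1.31% against 1.32% to 1.37%). With Klf1 or Gata1 as reference the Tet2KO libraries overlapped those of WT. The numerator holds the genes chosen for their pattern, so these ratios are a description.

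**Figure D4:**
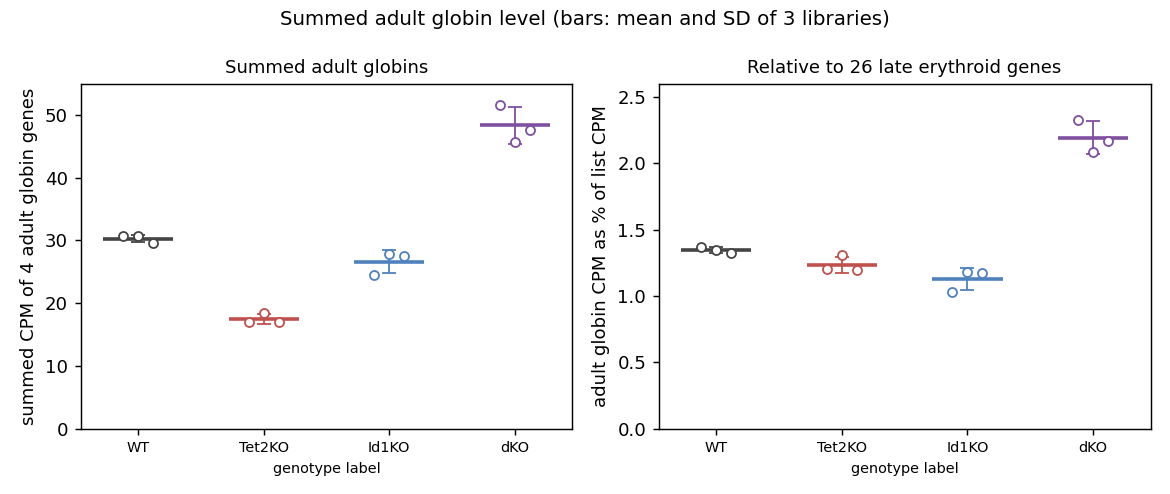
Summed CPM of the 4 adult globin genes in each library (left, y axis, TMM-scaled CPM) and the same sum as a percentage of the summed CPM of 26 late erythroid genes (right, y axis, %) by genotype label (x axis). Circles are libraries, and bars give the mean and SD of 3 libraries. The sum in Tet2KO is 17.5 against 30.3 CPM in WT, whereas the percentages, 1.23 and 1.35, are closer. The dKO percentage stands above both at 2.19. Car1, Car2 and Aqp1 weigh most in the sum of the list.

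Markers of maturer red cells give the background against which these levels stand. A list of 8 reticulocyte and red cell genes, all in the table, summed to 61.0 to 63.9, 38.6 to 40.4, 57.4 to 64.3 and 56.0 to 63.3 CPM under the labels WT, Tet2KO, Id1KO and dKO. Of its defining members, Alas2 stayed at 0.179 to 0.700 CPM and Slc4a1 at 0.298 to 1.95 CPM. This list overlaps the partner lists. It was not higher in dKO than in WT as a sum, while globin was, at 80.8% ± 5.04 of the list's CPM in dKO against 48.4% ± 1.61 in WT. Other cell types also varied with the labels. The sum of 9 neutrophil granule genes was 14073 to 14129, 15543 to 15783, 11823 to 12800 and 11637 to 12828 CPM in that order. The sum of 7 megakaryocyte genes was 156 to 164, 163 to 172, 222 to 236 and 163 to 180 CPM in the same order. Their part in the globin values was not tested.

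Embryonic and other minor globins were close to absent. Of 10 such genes in the table, 5 had no count in any library, namely Hba-x, Hbb-bh1, Hbb-bh2, Hbb-bh0 and Mb, and none had enough to test. Hbb-y, the embryonic epsilon-like gene, and Hbq1a had 1 count each over the 12 libraries, Hbq1b had 6, and the highest count of any in 1 library was 4, for the neuronal globin Ngb. A count of 0 in a library allows up to 3 counts, or 0.155 to 0.190 CPM depending on the library. Hbq1b lies between Hba-a1 and Hba-a2 on the chromosome. The symbols Ahsp, Hbb-b1 and Hbb-b2 were not matched in the table, and these genes were not analysed here.

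Of 27 genes within 100 kb of a globin gene, 5 had enough counts to test, all beside the alpha cluster, and the neighbours of the beta cluster were not tested. Nprl3, whose introns hold the alpha-globin enhancers, fell by 0.20 ± 0.05 under Tet2KO (edgeR, adjusted p = 0.00572, and 0.0513 with DESeq2) and by 0.27 ± 0.05 under Id1KO (0.00172), and gave -0.08 in dKO against WT (0.358). In dKO against Id1KO it was higher by 0.19 ± 0.05 (edgeR, adjusted p = 0.0197), a call lost with DESeq2 (0.139), with no filter (0.0683) and without Id1KO replicate 3 (0.0836) or dKO replicate 1 (0.075), and its interaction was 0.39 ± 0.08 (0.00165). Sh3pxd2b, on the far side of the cluster, rose by 0.40 ± 0.05 under Tet2KO (9.75e-06) and gave -0.10 in dKO (0.285). Mpg, Snrnp25 and Rhbdf1 gave no call in any of the 6 comparisons by edgeR. No neighbour was called in dKO against WT.

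The genes whose level over the 12 libraries most resembled the globin sum were sought among 9941 genes. These averaged 5 CPM or more in some genotype, and symbols of gene models were left out. By Pearson r of log2(CPM + 1), they were Tgm2 (0.976), Rnf17 (0.976), Xlr3b (0.973), Aspm (0.953), Hist1h1a (0.944) and Psmd2 (0.940). Rnf17 (5.21 CPM in dKO, 2.23 to 3.44 in the other genotypes) and Xlr3b passed the 5 CPM filter only through dKO. Globin was highest there too, so nothing is read from the ranks of these genes. Tgm2, a transglutaminase, was at 9.48 ± 0.967, 6.81 ± 0.169, 9.23 ± 0.303 and 13.2 ± 0.417 CPM in WT, Tet2KO, Id1KO and dKO, and Xlr3b at 4.24 ± 0.344, 2.41 ± 0.0622, 3.84 ± 0.749 and 7.78 ± 0.885 CPM. Aspm, a spindle protein, had the same order within a narrow range, 103 to 118 CPM in the genotype means. The points share genotype, depth and scaling. With genotype means removed, r fell to between -0.048 and 0.455 for these 6 genes. None of the 6 was on an erythroid list. Epb41 and Epb42, which are, ranked 7 and 10, with r of 0.934 and 0.923.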

How the data were processed

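LK cells from transplant recipients were profiled by stranded total RNA sequencing after ribosomal RNA depletion, per the labels' protocols. The authors deposited estimated counts per gene for 12 libraries, which were not normalized; 8.25% of genes have a value that is not whole. Per the submitters' processing notes, STAR and RSEM were used with mm10, without versions or roles; the annotation and the strand setting are not given in the sources used here. All 55450 identifiers matched GENCODE M21. No strand setting being known, reads of overlapping antisense genes could not be told apart, but no annotated gene overlaps a member. RSEM-type estimates divide reads among similar copies, so single globin copies are less certain than pair sums.

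Members and lists were chosen with earlier results of these data known. Counts were rounded, filtered (edgeR filterByExpr, minimum count 10, 14346 genes kept), scaled by TMM and fitted in 1 quasi-likelihood model over 12 libraries with 1 mean per genotype. The 6 contrasts were tested two-sided with Benjamini-Hochberg adjustment over all genes and a threshold of 0.05. SE is the log2 difference divided by the square root of F. Member sums are differences of mean log2 CPM. Members got no p. Shares were compared by an exact permutation test. Titles give the libraries of a genotype the same sample number, with a suffix read as replicate number. Deviations of same-numbered libraries correlated at -0.115 to 0.124, with 1 of 18 pairs over 0.1, so numbers were not used as pairs. All 12 library pairs within a genotype differed by more than sampling noise and were kept apart.

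Named genes were the members, Tet2, Id1, the 5 most abundant tested genes of each list, Ahsp, Alas2, Gata1, Klf1, Bcl11a and Zbtb7a, the 6 genes most like the globin sum and the tested neighbours. Of the genes followed, 2 are not reported here. Epb42, Slc4a1, Tspo2, Sox6, Ank1, Rhag, Xpo7, Icam4, Rhd, Bnip3l and Slc25a37 were named after their values were seen. Alternatives were RLE and upper-quartile scaling, library totals, scaling without the members, no filter, DESeq2, a replicate block, only the libraries compared, a threshold of 0.01, counts per exonic length and leaving out each library. The tests were run on simulated data first. Depth was 15706407 to 19959183 counts per library. Versions were R 4.3.3, edgeR 4.0.16, DESeq2 1.42.0, Python 3.11.15, scipy 1.17.1, Biopython 1.88 and matplotlib 3.10.9.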

Additional observations from a re-analysis of the deposited data

Results flagged for a closer look

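In every library the globin sum was higher in dKO than in Tet2KO and lower in Id1KO than in WT. For the sum, loss of Id1 by label thus went with opposite directions in the presence and absence of the Tet2KO label. The difference between these log2 differences was 1.66 for all 4 genes, 1.57 for Hba-a1 plus Hba-a2 and 1.68 for Hba-a2 alone. This difference was not tested, because the genes were chosen with these contrasts known. Id1KO overlapped WT for Hba-a1, Hbb-bs, Hbb-bt and the Hbb pair (log2 -0.15 ± 0.099 for the pair).

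Among the partner genes named in the text, the same interaction passed edgeR's test for Cpox (0.61) and Tmem14c (0.27) of the haem genes, and for Gata1 (0.62), Klf1 (0.71) and Bcl11a (0.21) of the regulators. Late erythroid genes that passed were Slc4a1 (2.32), Epb42 (1.41), Ermap (0.93), Tspo2 (0.85), Car2 (0.72), Aqp1 (0.61), Car1 (0.54) and Epb41 (0.14). Ank1, Rhag and Rhd also passed with positive values. Slc25a37 of the haem genes (-0.16) and Xpo7 of the late erythroid genes (-0.19) passed with negative values. The Bcl11a call was lost without Tet2KO replicate 1 (adjusted p = 0.0545) or 3 (0.0671), and that of Epb41 with DESeq2 (0.0718) and without WT replicate 1 (0.0527), Id1KO replicate 1 (0.0567) or dKO replicate 3 (0.054), the other values being from edgeR. Beside the alpha cluster, Nprl3 gave 0.39 and Sh3pxd2b -0.33. Id1 itself gave -1.40, with 24 to 34 counts in the WT libraries and 56 to 79 in all others.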

How the results depend on the processing

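The globin sums kept their direction under all scalings and with any 1 library left out. Over these settings the log2 difference of the sum was -0.83 to -0.74 for Tet2KO against WT, -0.22 to -0.13 for Id1KO against WT, 0.63 to 0.73 for dKO against WT, 1.42 to 1.50 for dKO against Tet2KO, 0.80 to 0.90 for dKO against Id1KO and 1.59 to 1.69 for the interaction. No share of globin counts passed the test under any setting; the adjusted exact permutation p of the alpha share was 0.0544 to 0.576 with 1 library left out. Partner gene calls for Id1KO against WT were 13, and 8 at a threshold of 0.01. Those for dKO against WT were 21, and 13 with DESeq2, 10 at a threshold of 0.01 and 13 to 21 with 1 library left out. With 1 library left out, calls were 46 to 51 for Tet2KO against WT, 10 to 17 for Id1KO against WT, 42 to 45 for dKO against Tet2KO, 15 to 21 for dKO against Id1KO and 34 to 40 for the interaction. With the replicate block they were 49, 14, 19, 44, 20 and 39 for Tet2KO, Id1KO and dKO against WT, dKO against Tet2KO and Id1KO, and the interaction; the numbers do not pair the samples, and 5 of 12 libraries correlated best with their own number. Over single genes and settings, 95 values lost and 17 gained a call, 4801 stayed on their side of the threshold or had no test, and no called value changed sign. Where calls changed, the cause was not tested. The shares rest on 278 to 814 globin counts per library, and for Slc4a1 and Alas2 the counts are too few for firm values.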
